A study of Homo sapiens with 6 samples.

Results

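The HOX genes are the protein-coding homeobox genes of the HOXA, HOXB, HOXC and HOXD clusters, and they were examined here in SH-SY5Y cells, a subline of a human neuroblastoma line. Members were taken from the table of reads per gene as every protein-coding gene whose symbol is HOX, a cluster letter and a paralog number. The rule found 25 of the 28862 genes listed: 4 of HOXA, 6 of HOXB, 7 of HOXC and 8 of HOXD. The GENCODE annotation holds 39 such genes, and the other 14 had no row in the table and were not analysed here. RNA was sequenced from 3 libraries of cells with a control plasmid and 3 libraries of cells labelled SMN1 overexpression, with 30379242 to 40275498 reads counted per library. SMN1 encodes the survival motor neuron protein, which assembles the ribonucleoproteins of the splicing machinery. All 6 libraries came from this line, the vector and its promoter are not given in the labels or notes used here, and nothing says whether the 3 libraries of a group were separate cultures, so p-values measure the spread between these libraries.

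HOX proteins are transcription factors that give cells a position along the head-to-tail axis. The genes lie in a row in each cluster, low paralog numbers at the 3′ end are used towards the head and high numbers at the 5′ end towards the tail and the limb tips, and a cell often keeps its pattern as a positional code after development. Sympathetic neurons, the lineage from which neuroblastoma arises, come from the trunk neural crest. HOXC9 is known for promoting neuronal differentiation and cell cycle exit when its level is raised in neuroblastoma cells.

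Before the comparison, SMN1 was checked against the labels. Its reads numbered 602, 624 and 568 with the control plasmid, against 494, 691 and 547 under the overexpression label. Counts scaled to library depth with TMM factors (CPM) were 20 ± 0.432 and 16 ± 1.08 (SD, n = 3 each), and SMN1 was lower in the libraries labelled SMN1 overexpression (log2 fold change −0.32 ± 0.06 SE, edgeR adjusted p = 9.4e-05). Since this goes against the label, and SMN1 shares nearly all of its sequence with SMN2, the group is called SMN1-labelled here. Whether the labels were exchanged, or reads of the construct were not counted to SMN1, was not tested, and with exchanged labels every direction given here would turn. Markers of adrenergic neuroblasts were abundant, with CHGA (chromogranin A) at 13926 and HAND2 at 2074 CPM in controls, but TH, the tyrosine hydroxylase gene, had 15 reads in all controls and 2 in all SMN1-labelled libraries.

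Homeobox sequences, which encode the DNA-binding homeodomain, are shown for the paralogs on which the comparison turns, since they show how far their reads can be told apart. They are the 180 nt of GENCODE transcripts on GRCh38, written 5′ to 3′, with capitals at the bases that differ from HOXC9.
HOXC9: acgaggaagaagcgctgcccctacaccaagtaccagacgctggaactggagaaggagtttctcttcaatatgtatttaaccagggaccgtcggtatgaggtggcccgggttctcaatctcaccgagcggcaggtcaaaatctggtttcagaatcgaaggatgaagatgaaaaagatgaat
HOXD9: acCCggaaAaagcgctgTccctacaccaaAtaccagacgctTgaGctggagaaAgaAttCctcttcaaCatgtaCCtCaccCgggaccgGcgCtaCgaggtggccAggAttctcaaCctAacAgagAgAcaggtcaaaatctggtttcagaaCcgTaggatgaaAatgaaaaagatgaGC
HOXD10: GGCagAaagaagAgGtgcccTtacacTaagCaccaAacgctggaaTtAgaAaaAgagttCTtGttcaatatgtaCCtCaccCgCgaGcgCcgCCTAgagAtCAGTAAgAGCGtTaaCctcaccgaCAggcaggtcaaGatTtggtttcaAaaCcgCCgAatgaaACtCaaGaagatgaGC
HOXD13: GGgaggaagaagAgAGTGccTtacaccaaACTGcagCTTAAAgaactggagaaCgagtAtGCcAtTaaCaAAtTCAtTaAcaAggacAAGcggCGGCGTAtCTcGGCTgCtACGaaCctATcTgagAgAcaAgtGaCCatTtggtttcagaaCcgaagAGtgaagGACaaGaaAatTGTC
The HOXD9 homeobox matched that of HOXC9, its paralog in the other cluster, at 150 of 180 bases (83.3%), and the longest run of identical bases was 23 nt. HOXD10 matched HOXC9 at 68.9% and HOXD13 at 57.8%. Reads were 150 nt long, and for each member 0 stretches of that length recurred exactly in a HOX gene of another cluster, so members of different clusters were distinguishable even in their most similar part. Within a cluster, exons overlap. Among genes with a row in the table, on the same strand, 59.9% of the exonic bases of HOXC5 were also annotated to the long non-coding genes RP11-834C11.12 or RP11-834C11.14, and 17.8% of HOXC4, 15.7% of HOXC6 and 16.8% of HOXD10 lay in exons of a neighbour. The counts of these 4 genes are therefore uncertain where the authors' counting split such reads, whereas HOXC8, HOXD8, HOXD9 and HOXD13 shared 0 exonic bases with such a gene on either strand. HOXC9 shared 4.35% of its exonic bases with HOXC6 on the same strand and 9.71% with the antisense gene HOXC-AS2. When all annotated transcripts were searched, 62.6% of the 150 nt stretches of HOXD3 and 67.1% of those of HOXD4 recurred in another gene, so their counts are uncertain too, and 0 stretches of HOXC9 did.

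The positional code of these cells lay in HOXC and HOXD. Levels were compared between genes as FPKM (fragments scaled to transcript length and library depth), and a gene was counted as expressed at a group mean of at least 0.5 FPKM. By that measure 7 members were expressed in both groups: HOXC4, HOXC5, HOXC6 and HOXC9 on chromosome 12, and HOXD3, HOXD8 and HOXD9 on chromosome 2. Paralog numbers 3 to 9 were thus represented by these 2 clusters, apart from number 7, of which neither has a member. The same 7 genes passed at 1 FPKM, and at 0.1 FPKM there were 13 in controls and 11 in the SMN1-labelled libraries. HOXC8, HOXD4, HOXD10 and HOXD13 joined in both groups at that level, and HOXB7 and HOXC10 in controls.

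HOXC4 had the highest level of all members, at 14.05, 14.37 and 14.9 FPKM in the control libraries. HOXC9 followed at 12.17, 11.85 and 11.39 FPKM, below each HOXC4 value. HOXD9 came next at 5.76, 5.45 and 4.73 FPKM. The following 3 genes were not separated by their spread: HOXD3 had 3.1 ± 0.367, HOXC6 2.99 ± 0.07 and HOXC5 2.82 ± 0.243 FPKM in controls (SD, n = 3). HOXD8 followed at 2.25 ± 0.118 FPKM. In SMN1-labelled libraries the order of the 7 means was the same, from 12.3 ± 0.235 FPKM for HOXC4 and 6.98 ± 0.36 for HOXC9 to 1.64 ± 0.0643 for HOXD8.

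Among the genes of low level, HOXD13 changed place. Its FPKM values in controls were 0.2, 0.22 and 0.22, below every value of HOXC8, HOXD10 and HOXD4 there. In SMN1-labelled libraries HOXD13 reached 0.55, 0.47 and 0.43 FPKM, above the highest value of each of those genes, which was 0.27 for HOXC8, 0.23 for HOXD10 and 0.25 for HOXD4. The 5′ end of HOXD was not counted evenly, since HOXD11, between HOXD10 and HOXD13, had 8 reads over all controls and 5 over all SMN1-labelled libraries. However, 21.4% of the exonic bases of HOXD11 lay in exons of HOXD10 on the same strand, so its count is uncertain too. HOXD12, also between them, had no row in the table.

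**Figure D1:**
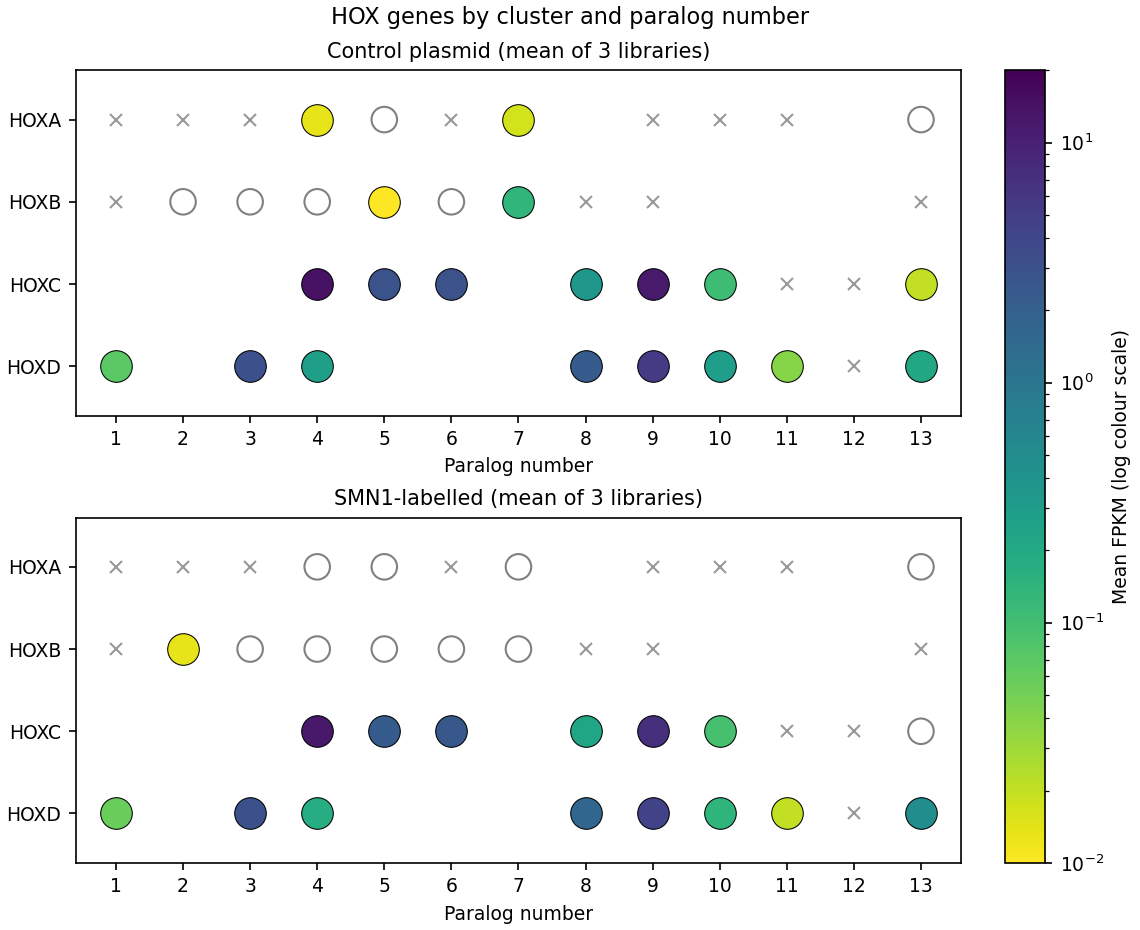
Each circle is a HOX gene placed by cluster (rows) and paralog number (horizontal axis), coloured by its mean FPKM over 3 libraries on a log colour scale, for control plasmid (top) and SMN1-labelled libraries (bottom). Open circles are listed genes under 0.01 FPKM or without an FPKM value, and crosses are annotated genes with no row in the count table; the dark circles lie in HOXC and HOXD at numbers 3 to 9 in both groups.

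HOXA and HOXB were barely detected. The 4 listed HOXA genes (HOXA4, HOXA5, HOXA7 and HOXA13) had 9 reads over all 6 libraries, 7 in controls and 2 in SMN1-labelled libraries. The 6 listed HOXB genes had 33 reads, 28 in controls and 5 in SMN1-labelled libraries. Without HOXB7 the other 5 (HOXB2, HOXB3, HOXB4, HOXB5 and HOXB6) had 12 over all 6 libraries. No HOXA or HOXB gene exceeded 0.2 FPKM in a library. The HOXC cluster held 72% of all HOX reads in controls and 69.4% in SMN1-labelled libraries, and HOXD held 27.7% and 30.5%, as shares of 10304 and 9461 reads.

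The FPKM totals of HOXC and HOXD were lower in the SMN1-labelled libraries. The summed FPKM of HOXC was 32.69, 32.17 and 32.76 in controls and 24.73, 24.29 and 24.4 in SMN1-labelled libraries. For HOXD the sums were 11.68, 12.27 and 10.71 against 9.87, 10.12 and 10.19. Groups did not overlap for either cluster, and on the CPM scale 60.7% of all single genes tested did not overlap either. FPKM summed over all genes was also lower, at 279585 to 280450 in SMN1-labelled libraries against 308575 to 313782 in controls. The cluster sums are given without a test and without the length and GC correction that is applied to single genes below. With it, the expressed HOXD genes had edgeR log2 fold changes of 0.12 (HOXD3), −0.02 (HOXD9) and −0.29 (HOXD8). Those of HOXC4 and HOXC9, the highest in HOXC, were −0.23 and −0.57. In bulk RNA fewer cells of a type and less RNA per cell cannot be told apart.

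Gene by gene, the tested HOX genes were mostly lower in SMN1-labelled libraries, HOXC9 among them, HOXD3 did not pass the test, and HOXD13 at the 5′ end of HOXD was higher. Of the 25 members, 10 passed the filter on low counts (0.317 CPM in at least 3 libraries) and entered the edgeR test over 15829 genes, all of them in HOXC or HOXD. Of these, 8 were called lower and 1 higher at an adjusted p of at most 0.05. Calls were common in this comparison: 56.2% of all genes tested were called, 28.2% lower and 28% higher, so a call of small size sets no gene apart. In 9 of the 10 genes the groups did not overlap in CPM, 8 of them with all SMN1-labelled libraries lower, where 60.7% of all genes tested did not overlap (30.2% lower and 30.4% higher). The median log2 fold change was −0.38 over the tested HOX genes and 0.00 over all genes tested. HOXD10 passed the filter only through the controls, so its lower value was favoured by the filter, whereas 9 of the 10 were above it in every library.

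**Figure D2:**
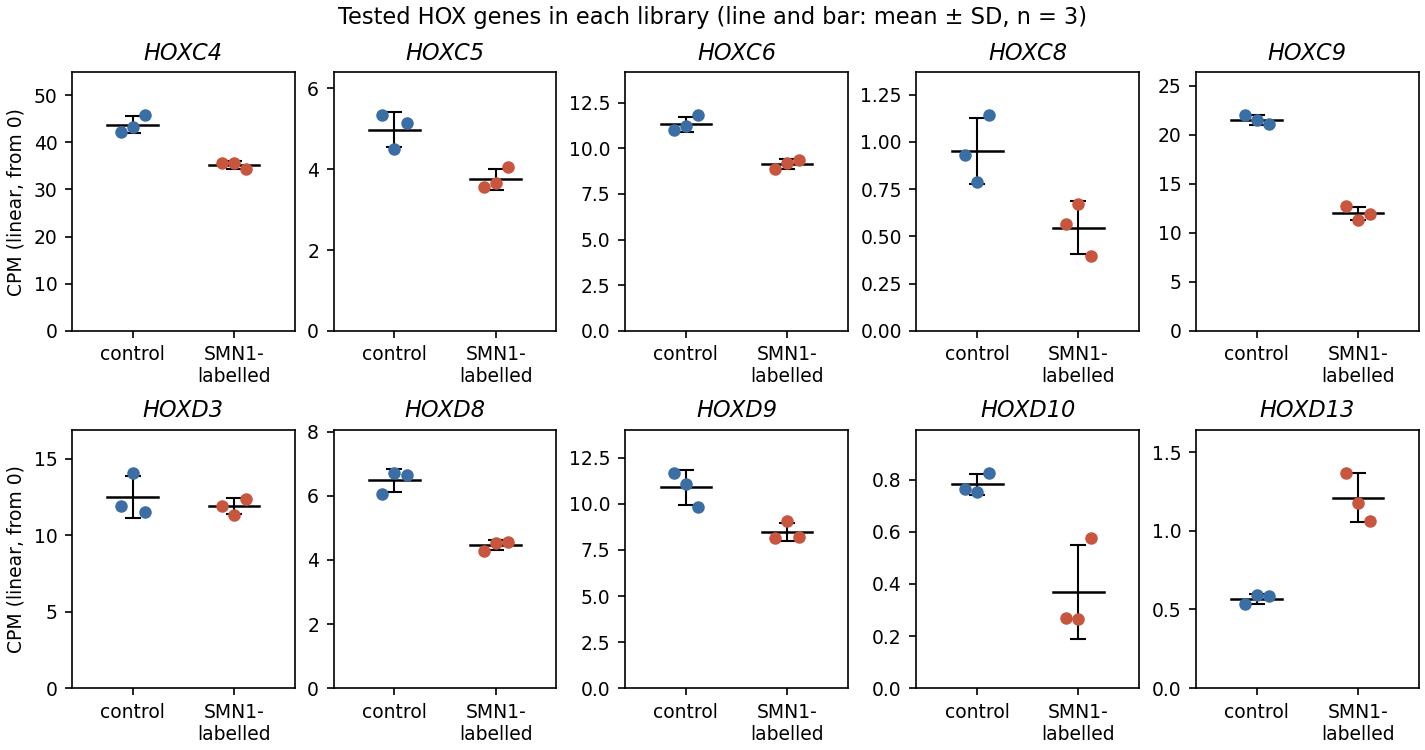
Each panel is a tested HOX gene, with CPM on a linear vertical axis from 0, a point per library, and the mean ± SD of 3 libraries per group. The groups overlap for HOXD3, the SMN1-labelled points are higher for HOXD13, and for the other 8 genes they are lower.

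HOXC9 (GRCh38 chromosome 12, 53994895 to 54003337, plus strand) had the smallest adjusted p of the tested members. It had 662, 655 and 611 reads in controls and 424, 472 and 392 in the SMN1-labelled libraries, or 22, 21.5 and 21.1 CPM against 12.7, 11.3 and 11.9 CPM. Every SMN1-labelled library was well below every control, and the libraries of a group lay close together. HOXC9 fell 1.8-fold (log2 fold change −0.85 ± 0.06 SE, 95% interval −0.98 to −0.72, adjusted p = 5.57e-11). Its share of all HOX reads was 18.7% in controls and 13.6% in SMN1-labelled libraries.

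The paralog HOXD9 moved less. It had 11.7, 11.1 and 9.82 CPM in controls against 8.15, 9.06 and 8.21 CPM, with the lowest control still above the highest SMN1-labelled library. HOXD9 fell 1.28-fold (log2 fold change −0.36 ± 0.08 SE, 95% interval −0.53 to −0.18, adjusted p = 0.000809). This interval did not overlap that of HOXC9, although the difference between the paralogs was not itself tested. The call for HOXD9 was lost when gene length and GC content were corrected for (log2 fold change −0.02, adjusted p = 0.848), whereas that for HOXC9 was kept (−0.57, adjusted p = 4.13e-08).

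The other genes at the 3′ side of HOXC, HOXC4, HOXC5 and HOXC6, made smaller steps down. HOXC4 had 42.2, 43.2 and 45.7 CPM in controls and 35.5, 35.7 and 34.3 CPM in SMN1-labelled libraries, and it fell 1.24-fold (log2 fold change −0.31 ± 0.04 SE, adjusted p = 2.19e-06). HOXC6 had 11, 11.2 and 11.8 CPM against 8.84, 9.21 and 9.34, also a 1.24-fold drop (−0.31 ± 0.07 SE, adjusted p = 0.000991). HOXC5 had 5.33, 4.49 and 5.14 CPM against 3.55, 3.65 and 4.05 and fell 1.33-fold (−0.41 ± 0.11 SE, adjusted p = 0.00351). None of these 3 genes had overlapping groups. Raw reads do not show this without scaling, since the deepest SMN1-labelled library had 1486 reads of HOXC4 and the controls 1269 to 1327.

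HOXC5 lies inside the transcribed span of HOXC4 and shares exons with non-coding neighbours, as given beside the homeobox sequences. RP11-834C11.12, which shares exonic bases with HOXC5 on the same strand, had 2.95 ± 0.375 CPM in controls and 1.67 ± 0.106 CPM in SMN1-labelled libraries (SD, n = 3). It fell 1.76-fold (log2 fold change −0.81, adjusted p = 8.69e-05), more than HOXC5 itself. Reads of HOXC5 and of this RNA cannot be fully separated in the table. With the length and GC correction HOXC5 was not called (log2 fold change −0.12, adjusted p = 0.408), and HOXC6 kept its call at −0.20 (adjusted p = 0.0231).

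HOXC8, next to HOXC9 on the chromosome, was low. It had 28, 24 and 33 reads in controls and 19, 28 and 13 in SMN1-labelled libraries, or 0.932, 0.786 and 1.14 CPM against 0.567, 0.673 and 0.395 CPM. The groups did not overlap on the CPM scale, but the libraries of a group were spread widely. Its log2 fold change was −0.77 ± 0.27 SE (95% interval −1.33 to −0.22, adjusted p = 0.0171). This call was lost in 6 of 15 alternatives: the adjusted p was 0.056 with DESeq2, 0.0876 without control replicate 3, 0.0793 without SMN1-labelled replicate 3 and 0.0672 with the length and GC correction. The log2 fold changes of HOXC8 there were −0.79, −0.63, −0.60 and −0.60.

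In HOXD, HOXD3, towards the 3′ end, was the 1 tested member that was not called. It had 11.9, 14.1 and 11.5 CPM in controls and 11.9, 11.3 and 12.4 CPM in SMN1-labelled libraries, and the groups overlapped. Its log2 fold change was −0.08 ± 0.08 SE (95% interval −0.24 to 0.08, adjusted p = 0.42), and the sign turned with the setting, for example to 0.12 with the length and GC correction. Besides the stretches it shares with other annotated transcripts, HOXD3 carries 14.6% of its exonic bases opposite exons of antisense genes, among them HOXD-AS2 and HAGLR, and no source used here says whether the counting used strand.

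HOXD8, the next expressed gene, had 6.06, 6.72 and 6.65 CPM in controls and 4.27, 4.52 and 4.56 CPM in SMN1-labelled libraries. No library of one group reached the other. HOXD8 fell 1.45-fold (log2 fold change −0.54 ± 0.10 SE, 95% interval −0.74 to −0.33, adjusted p = 6.15e-05). The call remained with the length and GC correction, at −0.29 (adjusted p = 0.0205).

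The 5′ genes HOXD10 and HOXD13 had opposite signs. HOXD10 had 23, 23 and 24 reads in controls and 9, 11 and 19 in SMN1-labelled libraries, or 0.766, 0.753 and 0.827 CPM against 0.269, 0.264 and 0.578 CPM. Control libraries were tightly grouped, and SMN1-labelled replicate 3 lay between them and the other 2 SMN1-labelled libraries. HOXD10 fell 2.14-fold (log2 fold change −1.10 ± 0.32 SE, 95% interval −1.75 to −0.45, adjusted p = 0.0047). Since only its control level took it past the filter, this fall was favoured by the filter, and with no filter the value was −1.08 (adjusted p = 0.00233).

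HOXD13 (GRCh38 chromosome 2, 176092891 to 176095938, plus strand), a gene of the most distal body and limb territories, had 16, 18 and 17 reads in controls and 46, 49 and 35 in SMN1-labelled libraries. On the CPM scale these were 0.533, 0.59 and 0.586 against 1.37, 1.18 and 1.06. Every SMN1-labelled library was above every control. HOXD13 rose 2.11-fold (log2 fold change 1.08 ± 0.24 SE, 95% interval 0.58 to 1.58, adjusted p = 0.000554), and the value was 1.21 with the length and GC correction (adjusted p = 0.00022). A call with at least a 2-fold rise was made for 0.727% of all genes tested, and one with at least a 2-fold fall, as for HOXD10, for 2.24%. Both genes rest on at most 49 reads in a library.

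**Figure D3:**
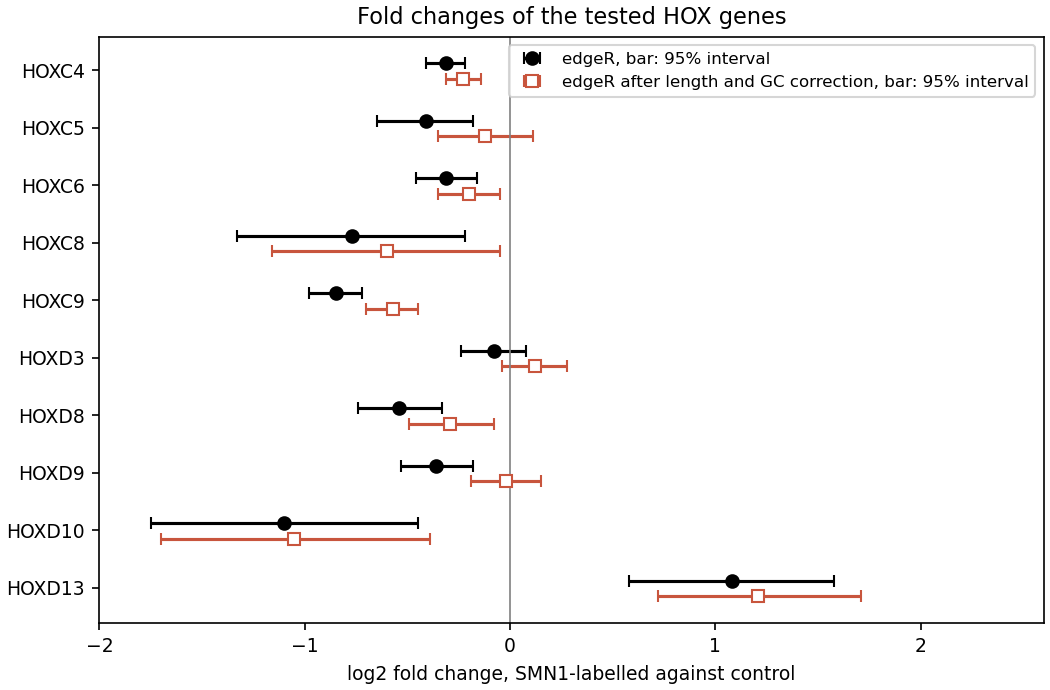
Log2 fold change of each tested HOX gene (horizontal axis, SMN1-labelled against control, 3 libraries each) from edgeR (filled circles) and from edgeR after the length and GC correction (open squares), with 95% intervals as bars. HOXC9, HOXD8 and HOXD10 stay left of 0 and HOXD13 right of it under both, while HOXC5 and HOXD9 move towards 0 with the correction.

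The tested HOX genes were shorter and richer in GC than the genes tested as a whole. Their median exonic length was 2434 nt against 4575 nt over all genes tested, and their median GC content 54.1% against 48.8%. After the correction 5 of the 10 were called lower (HOXC4, HOXC6, HOXC9, HOXD8 and HOXD10), 1 was called higher (HOXD13) and 4 were not called, where 25.2% of all genes with a length and GC value were called lower and 22.5% higher. The median log2 fold change was then −0.21 over the tested HOX genes. Among the 5 called lower, HOXD10 had passed the filter only through the controls, so its lower value was favoured by the filter.

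The 15 members under the filter had at most 13 reads in a library. HOXB7, a trunk gene of the B cluster, had 7, 4 and 10 reads in controls and 0 in each SMN1-labelled library. Its control level of 0.234 CPM was 8.44-fold a floor of 3 reads over the SMN1-labelled group (0.0278 CPM). This ratio takes the 21 control reads without their own error, and the control libraries ranged from 0.131 to 0.345 CPM. HOXB7 was the 1 filtered member called when no filter was used (edgeR adjusted p = 7.71e-06), where 14.7% of all 28862 genes were called lower. HOXB7 apart, the filtered members gave no such call. HOXA7 had 2, 1 and 1 reads in controls and 0 in each SMN1-labelled library (edgeR without a filter, adjusted p = 0.144). HOXD4 had 9, 13 and 10 reads in controls and 10, 6 and 7 in SMN1-labelled libraries. In CPM its groups just failed to overlap (0.3, 0.426 and 0.345 against 0.299, 0.144 and 0.213), with an adjusted p of 0.254 from edgeR without a filter. HOXC10 had 10, 8 and 7 reads against 13, 6 and 5, and HOXD1 had 3, 4 and 6 against 4, 4 and 4. Differences in these 4 genes were not detectable by the test at this depth. HOXC13, the 5′ end gene of HOXC and a gene of hair and nail, had 4 reads in controls and 1 in SMN1-labelled libraries.

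Non-coding RNAs of the clusters were next compared with the coding genes beside them. Of 29 listed by name, 12 had a row in the table, 2 passed the filter and both were lower, where 28.2% of all genes tested were lower. After the length and GC correction 1 was called lower. HOXD-AS2, transcribed antisense across the HOXD8 and HOXD9 region, had 5.56 ± 0.733 CPM in controls and 3.66 ± 0.366 in SMN1-labelled libraries (log2 fold change −0.61, adjusted p = 0.000126). HAGLR, an antisense RNA near HOXD1 and HOXD3, had 3.69 ± 0.486 against 2.73 ± 0.653 CPM (−0.45, adjusted p = 0.0163). Its groups overlapped, and its call was lost without control replicate 3 (log2 fold change −0.34, adjusted p = 0.0966) or without SMN1-labelled replicate 2 (−0.26, adjusted p = 0.161). The call for HOXD-AS2 was lost with the length and GC correction (−0.23, adjusted p = 0.1). HOTAIR, transcribed from HOXC, had 2 reads in controls and 1 in SMN1-labelled libraries.

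Of 17 tested genes that flank the clusters, 6 were higher and 6 lower, with a median log2 fold change of −0.04, against 28% and 28.2% of all genes. After the length and GC correction 2 were higher and 6 lower. The smallest p-values were those of ATP5MC2, a subunit gene of the mitochondrial ATP synthase, at −0.59 (adjusted p = 8.59e-11), and the RNA-binding protein genes HNRNPA1 at −0.35 (adjusted p = 3.2e-09) and HNRNPA3 at −0.34 (adjusted p = 7.81e-08). EVX2, the homeobox gene next to HOXD13 beyond the 5′ end of HOXD, was under the filter and was looked at after its values were seen. It had 1, 1 and 0 reads in controls and 9, 5 and 3 in SMN1-labelled libraries. All 3 SMN1-labelled libraries were above all controls, on 17 reads against 2 in all. Without a filter the edgeR adjusted p of EVX2 was 0.019, where 16.2% of all genes were called higher. Of the homeobox relatives elsewhere in the genome, only CDX1 passed the filter (log2 fold change −0.48, adjusted p = 0.259).

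HOX proteins bind DNA together with cofactors of the TALE class. Of 10 such genes tested, 5 were higher and 1 was lower, with a median log2 fold change of 0.12, where 28% of all genes were higher and 28.2% lower. With the length and GC correction 3 were higher and 2 lower, against 22.5% and 25.2% of all genes. MEIS2 rose from 281 ± 4.49 to 341 ± 2.14 CPM (log2 fold change 0.28, adjusted p = 1.21e-07), although it was at −0.01 with the length and GC correction (adjusted p = 0.908). MEIS3 fell from 79.7 ± 1.25 to 60.6 ± 1.08 CPM (−0.40, adjusted p = 4.36e-09).

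Polycomb proteins keep HOX genes silent outside their territory, and Trithorax and MLL proteins keep them active. Of 31 Polycomb genes tested, 15 were higher and 6 lower (median 0.10), and 12 and 7 with the length and GC correction. RYBP, a subunit of variant Polycomb complexes, was at 0.69 (adjusted p = 2.61e-10) and AEBP2, an accessory subunit of the methylating complex, at 0.65 (adjusted p = 1.71e-07). RING1, a ubiquitin ligase of the family, was at −0.33 (adjusted p = 2.65e-07), which went to 0.00 with the length and GC correction (adjusted p = 0.993). EZH2, the main catalytic subunit, had 135 ± 0.582 and 137 ± 1.36 CPM and was not called (log2 fold change 0.02, adjusted p = 0.688), but it was called lower with that correction (−0.17, adjusted p = 0.000158). Of 21 genes of the Trithorax, MLL and H3K27 demethylase list, 9 were higher and 5 lower (median 0.11), or 5 and 5 with the length and GC correction, with ASH1L, a histone methyltransferase, at 0.41 (adjusted p = 2.83e-09), the cohesin subunit RAD21 at 0.39 (adjusted p = 3.46e-09) and MLLT10, a partner of DOT1L, at 0.48 (adjusted p = 2.32e-07). The shares of calls in both lists are to be read against the 28% and 28.2% over all genes.

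Retinoic acid is an inducer of 3′ HOX genes, and genes of its pathway, with caudal and hindbrain regulators, were lower in 8 of 14 tested and higher in 2 (median −0.37, against 0.00 over all genes), where 28.2% of all genes were lower and 28% higher. With the length and GC correction 7 were lower and 3 higher. EGR2, 1 of the 8, passed the filter only through the controls (58 reads against 24), so its lower value was favoured by the filter. CRABP2, which carries retinoic acid to its receptor, fell from 137 ± 2.68 to 44.8 ± 1.54 CPM (log2 fold change −1.62, adjusted p = 7.91e-20). CRABP1, another retinoic acid binding protein, fell from 45 ± 2.33 to 27.5 ± 0.363 CPM (−0.71, adjusted p = 9.97e-12). RXRA, a partner of the retinoic acid receptors, fell from 12.8 ± 0.671 to 6.53 ± 0.385 CPM (−0.96, adjusted p = 4.61e-10). Whether these genes bear on the HOX levels was not tested.

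**Figure D4:**
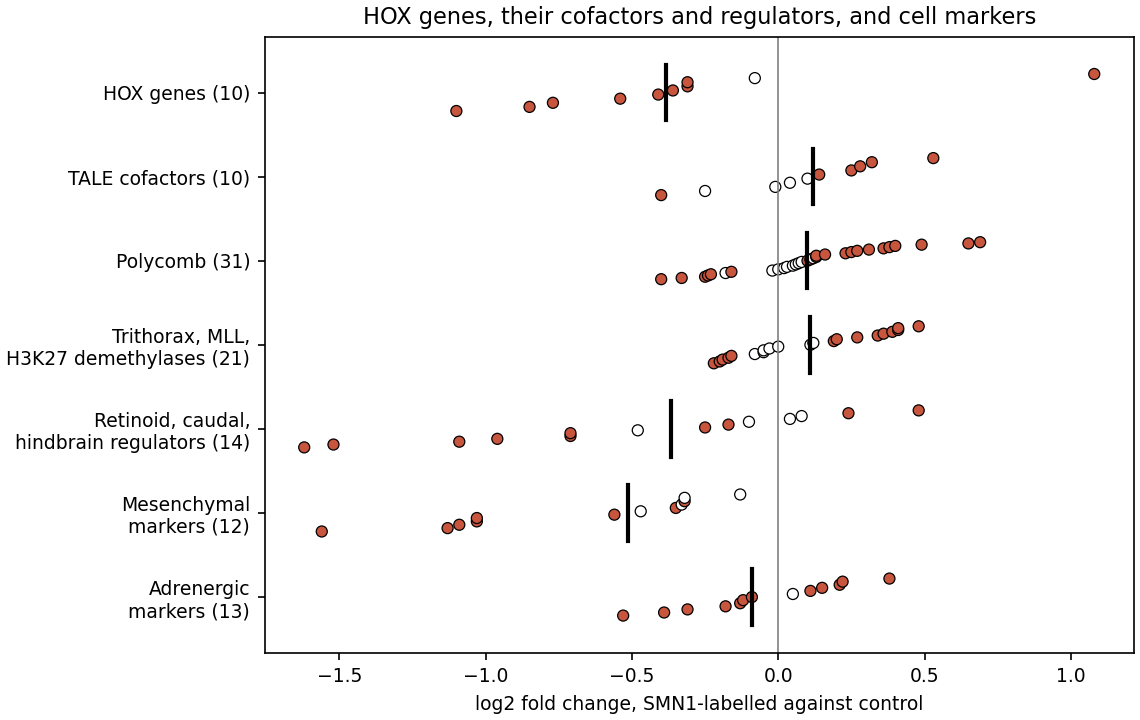
Log2 fold change (horizontal axis, SMN1-labelled against control) of each tested gene of 7 lists, with the number tested in brackets; filled points passed the edgeR test, and black bars are list medians. The HOX, retinoid and mesenchymal medians lie at −0.38, −0.37 and −0.51, and the TALE, Polycomb and Trithorax medians at 0.12, 0.10 and 0.11.

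Cell-type markers also differed between the groups, and their counts are to be read against the 28.2% of all genes called lower and 28% called higher. Neuroblastoma lines can hold adrenergic and mesenchymal-type cells. Of 12 mesenchymal-type markers tested, 8 were lower and 0 higher (median −0.51), or 9 and 0 with the length and GC correction, and their summed level was 998 to 1036 CPM in controls and 722 to 790 CPM in SMN1-labelled libraries. VIM (vimentin) was at −1.03, COL1A1 (a collagen chain) at −1.56 and FN1 (fibronectin) at −0.35, and COL1A2, under the filter, had 22 reads in controls and 2 in SMN1-labelled libraries. Of 13 adrenergic markers, 5 were higher and 7 lower (median −0.09), among them DBH at 0.38, DDC at −0.53 and PHOX2A at −0.39. With the length and GC correction 6 were higher and 3 lower, and PHOX2A was at −0.03 (adjusted p = 0.505). The summed adrenergic level, without the correction, was 19491 to 20781 CPM in controls and 20957 to 22029 CPM in SMN1-labelled libraries. CHGA made up most of it, at 13404 to 14642 CPM in controls and 15025 to 15884 CPM in SMN1-labelled libraries. Of 3 Schwann cell and glial markers tested, 2 were lower, S100B (−1.22) among them, from a summed level of 3.83 to 5.34 CPM in controls to 2.4 to 2.66 CPM, with SOX10, CDH19 and FABP7 not listed. Of 3 fibroblast and endothelial markers tested, PDGFRA was higher (0.51) and 0 were lower, with sums of 38.1 to 41.3 and 41.7 to 43.1 CPM. Of 3 epithelial and kidney markers tested, KRT8 (−1.70) and KRT18 (−1.41) were lower, with sums of 20.6 to 21.6 and 8.78 to 9.13 CPM. The part of these markers in the HOX differences was not tested.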

How the data were processed

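The 6 libraries of SH-SY5Y RNA were made with a stranded mRNA kit and sequenced as paired 150 nt reads, per the labels' protocols. HISAT2, DESeq2 and GRCh38 are named in the submitters' processing notes, without versions. The authors deposited raw read counts per gene and FPKM values per gene. No source used here gives the counting tool or its strand setting. Counts were tested with edgeR 4.0.16 (TMM factors, filterByExpr, quasi-likelihood test, group only, two-sided, Benjamini-Hochberg over 15829 genes, call at an adjusted p of at most 0.05) in R 4.3.3. DESeq2 1.42.0 and limma 3.58.1 served as alternatives, with limma on log2(FPKM + 0.1) and log2(FPKM + 1). The length and GC correction fitted splines with 5 degrees of freedom per library, using GENCODE 29 for 98.9% of the genes tested. On simulated counts for this comparison over 15829 genes, edgeR recovered 82.1% of 78 genes changed 1.5-fold, 86.4% of 66 changed 2-fold and 98.2% of 56 changed 4-fold. It called 17 of 15629 unchanged genes. Far fewer genes were changed there than the 8892 called in the data, so these shares do not give the error rate of the calls. Libraries of a group differed by a chi-square per degree of freedom of 2.41 to 4.12, so no library was a copy of another, and libraries of different groups by 54.3 to 61.8. Same-numbered libraries did not deviate together (correlations of 0.00528, 0.0133 and 0.003), so replicate numbers were not used as pairs. Floors for counts of 0 are 3 reads and cover only counting error, and only in the group at 0. FPKM values exist for 24 of the 25 members (none for HOXB3). Every HOX gene passing the filter is named with its values, the others by their reads, and from each list at most 3 called genes, taken by smallest p, apart from a few not reported here. Members and lists were chosen with earlier results of these data known.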

Additional observations from a re-analysis of the deposited data

How the results depend on the processing

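Of the 8 HOX genes called lower and the 1 called higher, leaving out each library in turn gave 7 to 8 and 1 to 1, with HOXC8 the gene lost. All genes called were 8019 to 8623 in those fits against 8892, and members of the cofactor and regulator lists 59 to 63 against 65. With the length and GC correction, alone or with the replicate block, 5 HOX genes were called lower. On log2(FPKM + 0.1) and log2(FPKM + 1) with a filter at 0.5 FPKM, 0 were called higher, because HOXD13 did not reach the filter. Without that filter HOXD13 was called at 0.29, and HOXC8 (adjusted p = 0.0698) and HOXD9 (adjusted p = 0.0639) were not. On FPKM, 62.6% of all calls were higher with the filter and 61.9% without, against 49.8% on counts. At 0.1 FPKM, 13 HOX genes counted as expressed against 7. HOXD3 turned to 0.12 with the length and GC correction and with that correction and the block, to 0.02 on log2(FPKM + 0.1), to 0.01 on log2(FPKM + 1) with or without a filter, and to 0.02 without control replicate 2 (−0.13 to 0.02 when each library was left out). MEIS2 turned to −0.01 and RING1 to 0.00 with the length and GC correction, with or without the block. The cause was not tested. Of 172 values of single HOX genes under alternatives, 155 kept direction and call. The replicate block, fitted although the numbers did not pair the libraries, left 8 HOX genes lower and 1 higher, with 4326 of all genes called higher and 4382 lower, and changed no HOX call. HOXC8, HOXD10 and HOXD13 are limited by depth, and the 15 filtered members could show only large differences.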
